A study of Mus musculus with 5 samples.

Results

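Immediate early genes were followed in hearts of calcineurin transgenic mice that had received vehicle or JIB-04. The 10 genes are Fos, Fosb, Jun, Junb, Egr1, Atf3, Ier2, Ier3, Nr4a1 and Klf4, chosen by name, and all 10 of them were found among the 19061 gene rows of the files and passed the filter on low counts, which left 14414 genes to test. Every mouse was C57BL/6 and carried the calcineurin transgene, named MHC-CnATg for the cardiac myosin heavy chain promoter that drives it in heart muscle cells, and hearts were taken at postnatal day 158. Per the labels, dosing began at 4 weeks of age, 3 times each week, with vehicle (2 libraries) or with JIB-04, an inhibitor of Jumonji histone demethylases, at 50 mg/kg (3 libraries). Sex, litter and batch are not among the labels, nor is a mouse named for each library, so p-values measure only the spread between these libraries.

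Immediate early genes are switched on within minutes of a stimulus from factors that the cell already holds, with no need for new protein synthesis. Growth factors, stretch, calcium and stress reach them through MAP kinases, which act on serum response factor with its cofactors and on CREB at the promoters. Many of the products are transcription factors, among them the subunits of AP-1, and their transcripts are short-lived. In heart muscle they are known for a fast and brief response to pressure load, so a heart sampled at one time shows a single moment of their activity.

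Levels are the deposited CPM, counts of a gene relative to a scaled library size. Libraries held 32152168 to 37002846 recovered reads, of which 8285 to 15130 fell on the 10 genes. A level of 3 reads, the upper limit that a count of 0 allows, was 0.0804 to 0.0977 CPM. As a check of the labelled tissue, 7 cardiomyocyte markers summed to 73386 to 98481 CPM in every library, and Ppp3ca, which can take up transgene reads, was at 4341 to 8022 CPM. One JIB-04 library, replicate 3, has a genotype misspelt in its title but the same genotype label as the rest. In bulk tissue, fewer cells of a type and less RNA per cell cannot be told apart.

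The promoters are shown because CREB and serum response factor are the textbook routes to immediate early genes. Any link between promoter motifs and the levels in these libraries was not tested. RefSeq promoter windows on GRCm38.p6, from 250 bases before to 50 after the annotated start, matched 8 of the 10 genes, with Egr1 and Ier2 not among them. Both strands were searched for 6 motifs. The CRE core TGACG was in 6 of 8 windows (Fos, Fosb, Junb, Atf3, Nr4a1 and Klf4), against 20.8% of all 32851 windows. The EGR site GCGNGGGCG, where N is any base, was in 3 of 8 (Fosb, Nr4a1 and Klf4), against 5.55%. TATAAA was in 2 of 8 (Fos and Junb), against 13.6%, and in Junb it began at the annotated start itself. The full CRE TGACGTCA (1.79% of all windows), the AP-1 site TGANTCA (7.81%) and the CArG box bound by serum response factor (1.63%) were in none of the 8, which speaks only of these letters in this window. The CRE core is contained in the full CRE. Below are the bases before the start, read 5′ to 3′ along the gene, with matches to any of the 6 motifs in capitals. Matches on the other strand show as the reverse complement, CGTCA for the CRE core.

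Nr4a1 had 4 CRE cores and Klf4 2 EGR sites, and for these and Fos the whole stretch of 250 bases is printed. For the others it is the 120 bases nearest the start.
Fos (chr12:85473640-85473889, plus strand): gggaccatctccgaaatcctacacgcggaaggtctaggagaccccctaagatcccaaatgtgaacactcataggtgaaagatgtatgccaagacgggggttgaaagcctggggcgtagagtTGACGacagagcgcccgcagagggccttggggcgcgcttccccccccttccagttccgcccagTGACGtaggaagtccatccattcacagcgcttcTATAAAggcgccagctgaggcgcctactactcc
Fosb (chr7:19310046-19310165, minus strand): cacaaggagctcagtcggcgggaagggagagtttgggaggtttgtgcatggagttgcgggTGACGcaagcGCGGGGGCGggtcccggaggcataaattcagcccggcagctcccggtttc
Junb (chr8:84978749-84978868, minus strand): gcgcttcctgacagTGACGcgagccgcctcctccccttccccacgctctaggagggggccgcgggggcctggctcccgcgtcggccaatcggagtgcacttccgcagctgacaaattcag
Atf3 (chr1:191183334-191183453, minus strand): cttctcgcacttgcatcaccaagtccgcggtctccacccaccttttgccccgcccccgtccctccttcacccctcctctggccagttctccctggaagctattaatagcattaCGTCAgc
Nr4a1 (chr15:101266596-101266845, plus strand): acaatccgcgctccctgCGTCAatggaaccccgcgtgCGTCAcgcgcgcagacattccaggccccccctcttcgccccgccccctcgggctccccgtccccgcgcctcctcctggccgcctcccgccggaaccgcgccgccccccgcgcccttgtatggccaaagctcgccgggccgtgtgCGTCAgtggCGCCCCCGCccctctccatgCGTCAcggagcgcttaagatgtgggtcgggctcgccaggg
Klf4 (chr4:55532476-55532725, minus strand): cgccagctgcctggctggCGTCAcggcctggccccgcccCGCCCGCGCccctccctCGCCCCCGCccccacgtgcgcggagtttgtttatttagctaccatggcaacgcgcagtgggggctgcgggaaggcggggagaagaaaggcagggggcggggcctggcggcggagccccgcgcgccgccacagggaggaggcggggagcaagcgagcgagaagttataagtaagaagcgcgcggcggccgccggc
In Fos the nearer CRE core lay at -66 to -62 and TATAAA at -33 to -28, counted back from the start. In Fosb the CRE core lay at -60 to -56 and the EGR site at -50 to -42. Jun and Ier3 held none of the 6 motifs in their windows.

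No immediate early gene passed the test of JIB-04 against vehicle, set against the spread between libraries. The 3 JIB-04 libraries differed widely among themselves: replicate 1 was low and replicate 3 high for most of the 10 genes. Fos, Junb, Egr1 and Atf3 differed by more than 2-fold between the lowest and highest JIB-04 library, and Ier2, Jun, Ier3, Klf4 and Nr4a1 by less. Fosb rested on few reads.

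Fos (chromosome 12, 85473900 to 85477270 on mm10) encodes the partner that pairs with Jun proteins to form AP-1. Vehicle libraries held 4.76 and 5.11 CPM, and JIB-04 replicates 1, 2 and 3 held 3.39, 7.71 and 9.55 CPM. JIB-04 replicate 1 lay below both vehicle libraries and the other two above them. The log2 fold change was 0.32 (SE 0.35, 95% interval -0.51 to 1.14; limma adjusted p = 0.879). These log2 fold changes are on the log2(CPM + 1) scale, which understates changes of genes at low CPM.

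Fosb (chromosome 7, 19302695 to 19310045), a Fos relative whose truncated form is known to build up under repeated stimulation, was at 0.322 and 0.391 CPM in vehicle and 0.330, 0.884 and 0.511 CPM in JIB-04. These rest on 12 and 12 reads in vehicle and 11, 33 and 18 in JIB-04, so only JIB-04 replicate 2 stood clearly apart. The log2 fold change was 0.20 (95% interval -0.19 to 0.59), and 0.72 with edgeR, which works on the reads.

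Junb (chromosome 8, 84976908 to 84978748), a Jun relative that also tempers AP-1 activity, was at 26.8 and 20.0 CPM in vehicle and 23.5, 42.1 and 49.0 CPM in JIB-04. Replicate 1 lay between the vehicle libraries and the other two above both. Its log2 fold change of 0.64 (SE 0.29, 95% interval -0.07 to 1.34; limma adjusted p = 0.815) was the highest of the 10. Prdx2, which overlaps part of Junb on the other strand in GENCODE, was at 198 to 226 CPM in all 5 libraries, with a residual SD of 0.07, and it does not overlap Junb by the files' own coordinates.

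Jun (chromosome 4, 95049035 to 95052222), the central AP-1 subunit, was the most abundant of the 10 at 138 and 145 CPM in vehicle and 103, 99.3 and 156 CPM in JIB-04. It was the one gene for which JIB-04 replicate 2, not replicate 1, was lowest. The log2 fold change was -0.27 (SE 0.19, 95% interval -0.72 to 0.18; limma adjusted p = 0.831), so Jun and Junb had values of opposite sign, a difference that was not tested. Reads of an antisense transcript, Junos, which overlaps Jun in GENCODE, could not be told apart unless the counting used strand, which is not given in the sources used here.

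Atf3 (chromosome 1, 191170296 to 191183333), a stress-induced factor of the ATF family that often represses, was at 24.9 and 33.3 CPM in vehicle and 19.3, 26.7 and 43.3 CPM in JIB-04. The JIB-04 libraries enclosed the vehicle libraries on both sides. Its log2 fold change was -0.03 (95% interval -0.77 to 0.70), and it was above 0 with edgeR, with DESeq2 and after rescaling each library to a common sum.

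**Figure D1:**
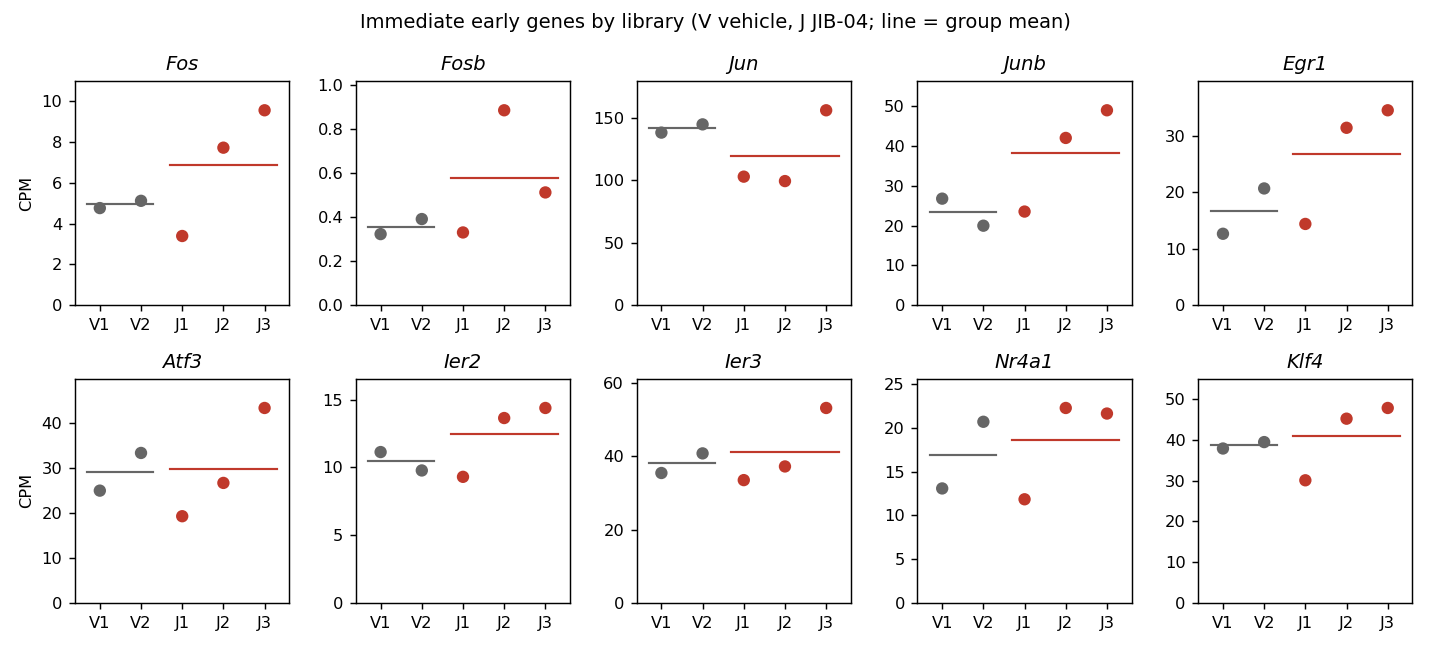
Level in CPM (vertical axes, each from 0) of the 10 immediate early genes in vehicle libraries V1 and V2 (grey) and JIB-04 libraries J1 to J3 (red), each point a library and each line a group mean. The groups overlap for every gene, and J1 is the lowest JIB-04 library for all but Jun.

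Egr1 (chromosome 18, 34861206 to 34864956), a zinc finger factor induced through serum response factor, was at 12.6 and 20.6 CPM in vehicle and 14.4, 31.4 and 34.5 CPM in JIB-04. JIB-04 replicate 1 lay between the vehicle libraries and the other two above both. Its log2 fold change was 0.60 (SE 0.38, 95% interval -0.30 to 1.497; limma adjusted p = 0.830). Nr4a1 (chromosome 15, 101266845 to 101274794), an orphan nuclear receptor, was at 13.1 and 20.7 CPM in vehicle and 11.8, 22.3 and 21.7 CPM in JIB-04. The vehicle libraries themselves were 1.58-fold apart and the JIB-04 ones up to 1.88-fold, and the log2 fold change was 0.11 (95% interval -0.59 to 0.82). Klf4 (chromosome 4, 55527136 to 55532475), a Krüppel-like zinc finger factor of endothelial and smooth muscle cells, was at 37.9 and 39.5 CPM in vehicle and 30.1, 45.2 and 47.9 CPM in JIB-04. The close vehicle pair lay inside the JIB-04 range, and the log2 fold change was 0.06 (95% interval -0.39 to 0.50).

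Ier2 (chromosome 8, 84661330 to 84662852), a nuclear protein induced by growth factors, was at 11.1 and 9.77 CPM in vehicle and 9.30, 13.6 and 14.4 CPM in JIB-04. Its log2 fold change was 0.21 (95% interval -0.23 to 0.65). Ier3 (chromosome 17, 35821712 to 35822911), which is known to affect cell survival and the length of ERK signalling, was at 35.4 and 40.8 CPM in vehicle and 33.5, 37.2 and 53.2 CPM in JIB-04. For Ier3 only JIB-04 replicate 3 lay above both vehicle libraries, and the log2 fold change was 0.09 (95% interval -0.36 to 0.53).

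Counted over the 10, 0 rose and 0 fell with limma at an adjusted p of 0.05, against 0% of all 14414 tested genes in each direction. At an unadjusted p under 0.05 limma also gave 0 of the 10, against 3.93% of all tested genes higher and 2.51% lower. So did edgeR (4.28% higher and 2.28% lower) and limma-voom (3.61% and 2.44%). DESeq2 called 0 of the 10 after adjustment, against 0.472% of tested genes higher and 0.111% lower. Before adjustment DESeq2 gave 3.82% of tested genes higher and 1.76% lower, and of the 10 Junb alone (0.0129; DESeq2 adjusted p = 0.482). Groups that did not overlap numbered 0 of 10 in either direction, against 10.7% of tested genes that were higher in all JIB-04 than in all vehicle libraries and 12% that were lower. Values were positive for 8 of 10, with Atf3 changing sign between tools, against 46.9% of all tested genes. After rescaling to a common sum it was 9 of 10, against 63.1%. It was 5 of 10 without JIB-04 replicate 3, where Ier3, Nr4a1 and Klf4 were also below 0, and 48.1% of all tested genes were positive. In the fit of all libraries the median log2 fold change was 0.16, against -0.01 over all tested genes. Single libraries set its size: it was 0.35 when JIB-04 replicate 1 was left out and 0.02 when replicate 3 was. The intervals are wide, and for Egr1 they reach from -0.30 to 1.497, so the data do not show that levels were alike.

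**Figure D2:**
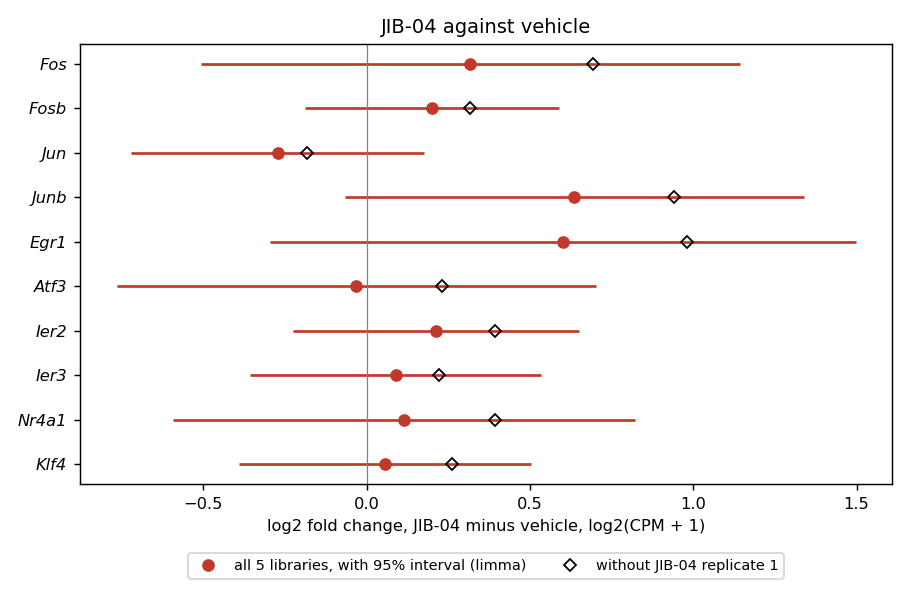
Log2 fold change of JIB-04 minus vehicle on the log2(CPM + 1) scale (horizontal axis) for each of the 10 genes, with limma's 95% interval (red) and the value without JIB-04 replicate 1 (open diamond). Every interval crosses 0. Every value without JIB-04 replicate 1 lies to the right of the value with it, which must follow because that library lies below the JIB-04 mean for each gene.

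Within the JIB-04 group the 10 genes moved largely together from library to library. JIB-04 replicate 1 was the lowest of the 3 for 9 of 10 genes, an order that 34.2% of all tested genes shared, and replicate 3 was the highest for 8 of 10, against 27.3%. Over all 5 libraries, JIB-04 replicate 1 was lowest for 6 of 10 (19.6% of tested genes) and replicate 3 highest for 8 of 10 (17.3%). Relative to each gene's vehicle mean on the log2 scale, the mean of the 10 was -0.27 in JIB-04 replicate 1, 0.31 in replicate 2 and 0.54 in replicate 3, while the median of all tested genes ran from -0.0168 to 0.00444. In replicate 1 only Junb was above its vehicle mean, and in replicate 3 all 10 were. In replicate 2 the genes parted: Egr1 and Junb were 0.91 and 0.83 above the vehicle mean, and Jun was at -0.50. In vehicle, replicate 2 was the higher for 8 of 10 genes (53% of tested genes), with Junb and Ier2 the exceptions.

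**Figure D3:**
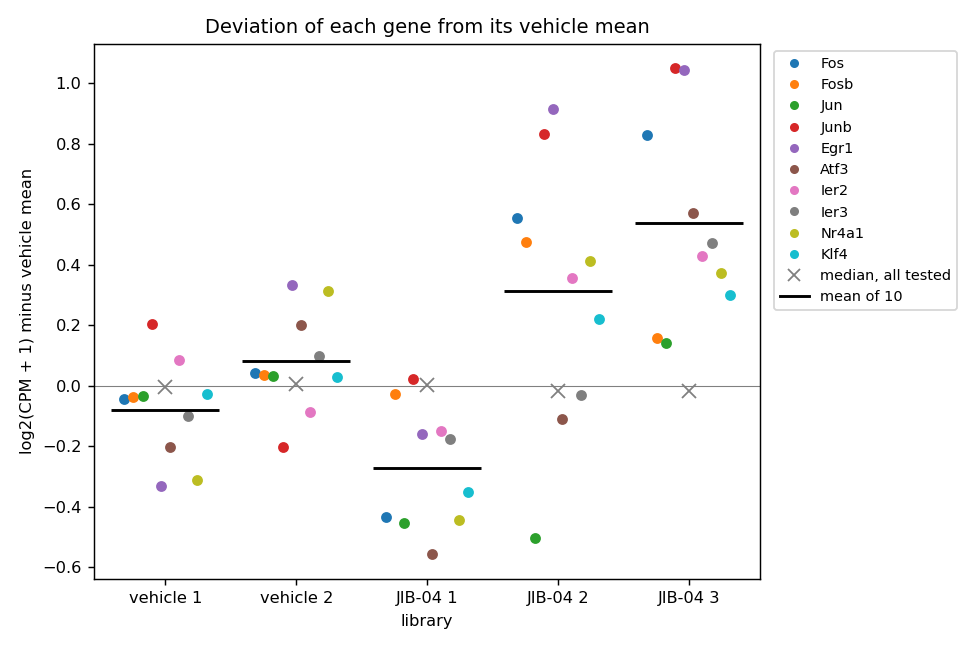
Deviation of log2(CPM + 1) from the gene's vehicle mean (vertical axis) in each library (horizontal axis), one coloured point per gene, a bar for the mean of the 10 and a cross for the median of all tested genes. The bars lie at -0.27, 0.31 and 0.54 in the JIB-04 libraries, and the crosses stay near 0.

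Without JIB-04 replicate 1, a choice made after the values were seen, 7 of 10 genes had both remaining JIB-04 libraries above both vehicle libraries, against 23.3% of tested genes, and 0 of 10 below, against 28.9%. The 7 were Fos, Fosb, Junb, Egr1, Ier2, Nr4a1 and Klf4. None of the 10 passed in that fit either: Junb came nearest with a log2 fold change of 0.94 (limma adjusted p = 0.0615), then Fos with 0.69 (0.0805) and Egr1 with 0.98 (0.0963), while 27 genes rose and 2 fell among all tested. With JIB-04 replicate 2 or 3 left out instead, 0 of 10 lay above, against 15.7% of tested genes either way, and 1 of 10 lay below without replicate 3 (17.2%). With a vehicle library left out, 1 of 10 lay above (vehicle replicate 1 out, 22.3% of tested genes) or 2 of 10 (vehicle replicate 2 out, 19.5%).

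The spread between the JIB-04 libraries was wide for all 10 genes. In vehicle, Klf4 and Jun spread less than the median of all tested genes. The highest over the lowest CPM in JIB-04 ran from 1.55 for Ier2 to 2.82 for Fos, with 2.40 for Egr1, 2.25 for Atf3, 2.08 for Junb and a median of 1.98, against 1.19 over all tested genes. Every one of the 10 spanned at least 1.5-fold there, as did 19.1% of all tested genes. In vehicle the ratio ran from 1.04 for Klf4 to 1.63 for Egr1, with a median of 1.18 against 1.07, and Egr1 and Nr4a1 (1.58) were the 2 of at least 1.5-fold, against 5.77% of tested genes. A range over 3 libraries is wider than one over 2 in most genes: it was so for 81.6% of tested genes and for all 10 here.

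On the log2(CPM + 1) scale the residual SD within groups was 0.61 for Egr1, 0.54 for Fos, 0.49 for Atf3 and 0.47 for both Junb and Nr4a1. It was 0.29 for Jun, Ier3 and Klf4, 0.27 for Ier2 and 0.21 for Fosb. The median of the 10 was 0.38, against 0.11 over all tested genes, and all 10 lay above 0.17, the third quartile of all tested genes. Of genes within 2-fold of the same mean CPM, 0.355% had a residual SD as large as that of Egr1, 0.782% as large as Atf3, 1.46% as large as Fos and 17% as large as Fosb. Counting error alone gives SDs from 0.02 for Jun to 0.11 for Fosb, so the observed SD was 13.5 times the counting SD for Jun and 1.87 times for Fosb. Without JIB-04 replicate 1 the median of the 10 was 0.25, against 0.08 over all tested genes, and 8 of 10 lay above the third quartile.

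**Figure D4:**
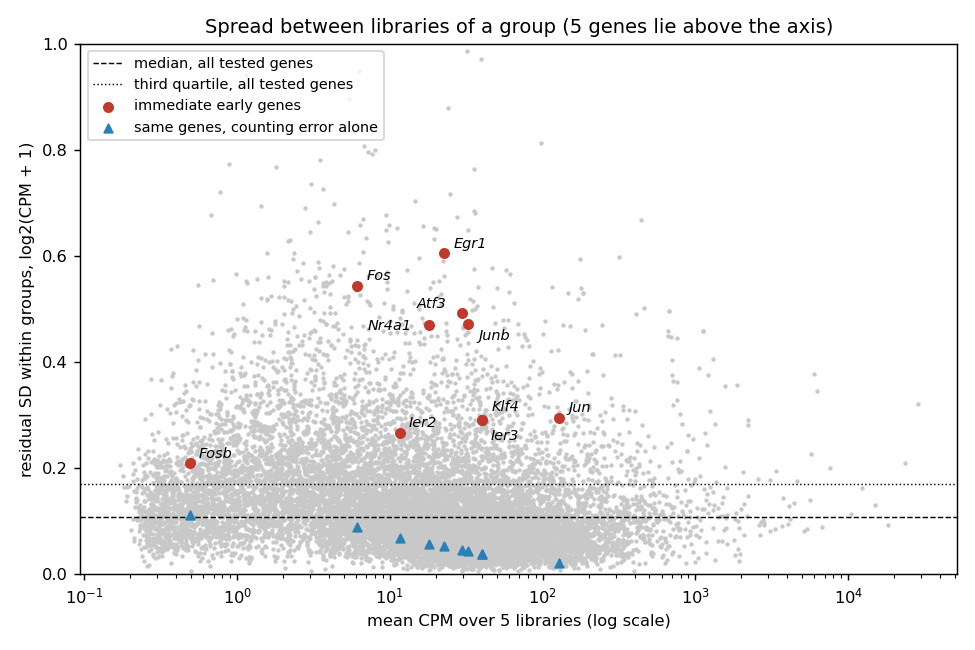
Residual SD within groups of log2(CPM + 1) (vertical axis) against mean CPM on a log scale (horizontal axis), one grey point per tested gene, with the 10 immediate early genes in red and the SD that counting error alone gives them as blue triangles. All red points lie above the dotted line at 0.17, the third quartile, and 5 grey points lie above the axis.

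Levels can be compared between genes only per length, and were divided by the merged exon length in GENCODE vM21, which may not be the model the authors counted on. On that scale Jun and Ier3 led with means over 5 libraries of 40.2 and 35.4 CPM per kb. Junb, Atf3 and Klf4 followed at 14.03, 13.7 and 13.2 CPM per kb, then Ier2 at 7.65, Nr4a1 at 5.11, Egr1 at 5.06, Fos at 2.60 and Fosb at 0.0781. Neighbours in that order had overlapping ranges over the libraries, except Ier3 and Junb, Klf4 and Ier2, and Fos and Fosb. Fos ranged from 1.44 to 4.06 CPM per kb and Fosb from 0.0517 to 0.142.

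Other transcription factors of the early response also differed between the JIB-04 libraries. Of 22 tested, 0 rose and 0 fell with limma, and the median log2 fold change was 0.10. Before adjustment, where the threshold is the same 0.05, 0 were higher and 1 lower, against 3.93% and 2.51% of all tested genes. Values were positive for 15, against 46.9% of all tested genes. JIB-04 replicate 1 was lowest of the 3 for 17 of 22, against 34.2% of all tested genes, and JIB-04 replicate 3 highest for 13 of 22, against 27.3%. Their median residual SD was 0.24, and 21 of 22 lay above the median of all tested genes. Fosl1, another Fos relative, was at 0.161 and 0.358 CPM in vehicle and 0.240, 1.125 and 0.625 CPM in JIB-04. Egr2, a relative of Egr1, was at 1.505 and 2.12 CPM in vehicle and 1.59, 4.04 and 3.35 CPM in JIB-04, again with replicate 1 in the vehicle range. Cebpd, a factor of the acute phase response, was at 11.3 and 13.7 CPM in vehicle and 13.98, 15.5 and 28.5 CPM in JIB-04, and Cebpb, its relative, at 37.2 and 31.1 against 27.2, 25.9 and 30.8 CPM. Cebpb thus lay below and Cebpd above vehicle in every JIB-04 library (limma adjusted p = 0.750 and 0.821). The nearest libraries were close, at 30.8 against 31.1 CPM for Cebpb and 13.98 against 13.7 CPM for Cebpd. Of the 22, 1 lay above both vehicle libraries in every JIB-04 library and 1 below, against 10.7% and 12% of all tested genes.

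Effectors and feedback genes of the early response numbered 31 tested, with 0 past limma's threshold (before adjustment, 4 higher and 1 lower, where all tested genes gave 3.93% and 2.51%), 19 positive (46.9% of all tested genes) and a median of 0.03. JIB-04 replicate 1 was lowest of the 3 for 20 of 31 (34.2% of all tested genes) and replicate 3 highest for 21 of 31 (27.3%), and the median residual SD was 0.20. Socs3, which damps cytokine signalling, was at 6.66 and 4.49 CPM in vehicle and 7.499, 13.5 and 23.5 CPM in JIB-04, with a log2 fold change of 1.154 (SE 0.41; limma adjusted p = 0.748). Tnfaip3, which restrains NF-kappaB, was at 3.41 and 3.45 against 4.65, 5.95 and 5.48 CPM (limma adjusted p = 0.527). Spry4, an inhibitor of receptor tyrosine kinase signalling, was at 14.5 and 14.4 against 17.6, 18.03 and 18.7 CPM (limma adjusted p = 0.561). Rhob, a small GTPase of the early response, was lower in every JIB-04 library, at 173 and 187 against 163, 144 and 160 CPM (limma adjusted p = 0.748). These 4 genes had the smallest p of the list. In each, JIB-04 replicate 1 lay on the same side of vehicle as replicates 2 and 3. Of all 31, 5 lay above both vehicle libraries in every JIB-04 library and 2 below, against 10.7% and 12% of all tested genes.

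Of the lists of upstream and partner genes the median residual SDs were lower, though single genes such as Rps6ka5, with a residual SD of 0.38, were not. For the 28 tested genes of the MAP kinase cascade the median log2 fold change was -0.05 and the median residual SD 0.10, and JIB-04 replicate 1 was lowest of the 3 for 11 of 28 and highest for 12 of 28, where 34.2% and 40.9% of all tested genes were. With limma 0 passed the threshold (before adjustment, 1 higher and 0 lower, where all tested genes gave 3.93% and 2.51%). Rps6ka3, an RSK kinase, was at 48.6 and 49.7 CPM in vehicle and 53.9, 57.7 and 54.7 CPM in JIB-04 (limma adjusted p = 0.748). Rps6ka1 and Mapk8 had log2 fold changes of 0.30 and -0.13. Serum response factor and its cofactors (7 tested, 0 past limma's threshold and 0 before adjustment) had a median of -0.01 and a median residual SD of 0.13. Srf itself was at 125 and 123 CPM in vehicle and 111, 125 and 133 CPM in JIB-04, while Myocd, its muscle coactivator, was at 69.9 and 75.9 against 66.5, 53.0 and 64.7 CPM. Elk1, Mkl1 and Mkl2 had log2 fold changes of -0.18, 0.16 and -0.15. The 17 AP-1 and CREB partner factors (0 past limma's threshold and, before adjustment, 1 higher and 0 lower) had a median of 0.03 and a median residual SD of 0.11. JIB-04 replicate 1 was lowest of the 3 for 9 of 17 and replicate 3 highest for 8, against 34.2% and 27.3% of all tested genes. For serum response factor and its cofactors these counts were 3 and 2 of 7. Among the AP-1 and CREB partner factors Maf, a large Maf factor of macrophages, had the smallest p. It did not overlap between groups, at 11.1 and 8.99 against 13.0, 13.5 and 14.7 CPM (limma adjusted p = 0.630). Of the 17, 2 lay above both vehicle libraries in every JIB-04 library and 1 below, against 10.7% and 12% of all tested genes. By the same count, serum response factor and its cofactors had 0 above and 2 below of 7. The MAP kinase cascade had 2 above and 1 below of 28. Batf and Atf6 had log2 fold changes of 0.23 and -0.12. Differences in spread between these lists were not tested.

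**Figure D5:**
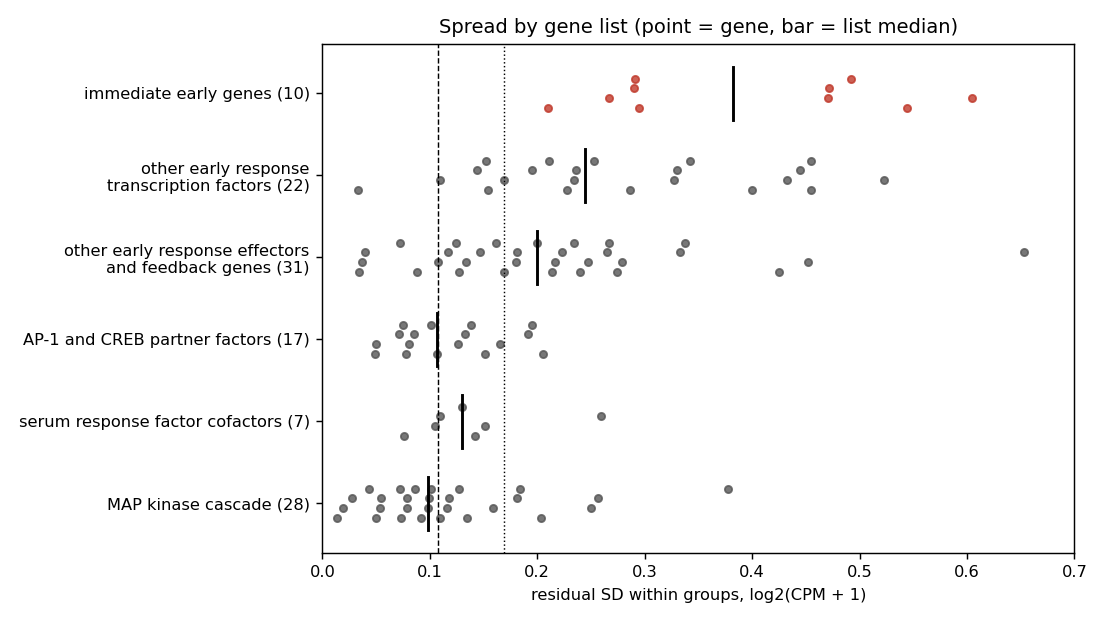
Residual SD within groups of log2(CPM + 1) (horizontal axis) for the genes of each list (vertical axis, number tested in brackets), one point per gene, with a bar at the list median and the median and the third quartile of all tested genes as dashed and dotted lines. List medians run from 0.38 for the immediate early genes to 0.10 for the MAP kinase cascade.

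Markers of other cells also differed between the JIB-04 libraries, and their part in the spread of the 10 genes was not tested. No marker was at 0 in every library. Of all tested genes, 34.2% were lowest of the 3 JIB-04 libraries in replicate 1, 37.6% in replicate 2 and 28.2% in replicate 3. All 8 macrophage markers were lowest in JIB-04 replicate 1 of the 3 JIB-04 libraries, with sums of 228, 305 and 342 CPM in replicates 1, 2 and 3 and 233 and 168 CPM in vehicle. Endothelial markers were lowest in replicate 1 for 7 of 8, with sums of 784, 1023 and 892 CPM and 854 and 898 CPM in vehicle. Fibroblast markers, lowest in replicate 1 for 6 of 7, summed to 2322, 3112 and 2957 CPM, with 2294 and 2024 CPM in vehicle. All 9 red blood cell markers were lowest in replicate 1, at sums of 1791, 3559 and 2608 CPM, with vehicle sums above them, at 7432 and 4862 CPM. The 5 mesothelial markers summed to 5.13, 9.48 and 9.21 CPM in JIB-04 and 8.57 and 7.001 CPM in vehicle. Neutrophil markers summed to 8.82, 6.83 and 18.4 CPM in JIB-04 and 7.04 and 8.43 CPM in vehicle, where replicate 3 stood apart. Cardiomyocyte markers were lowest in JIB-04 replicate 2 for 5 of 7. They were highest of the 3 in replicate 1 for 6 of 7, against 40.9% of all tested genes. Their sums were 97924, 73386 and 88131 CPM in JIB-04 and 86313 and 98481 CPM in vehicle. Smooth muscle and pericyte markers were lowest in replicate 1 for 4 of 7, while their sum was lowest in replicate 2 (1864, 1332 and 1967 CPM). In vehicle their sums were 1816 and 1432.5 CPM. Lymphocyte markers were highest in replicate 1 (7.71, 5.71 and 5.51 CPM), with lower sums of 4.19 and 3.78 CPM in vehicle. Schwann cell and neuron markers ran from 8.04 to 10.4 CPM in all 5 libraries, and adipocyte markers were at or under 0.293 CPM.

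Genes whose pattern over the 5 libraries was most like the mean profile of the 10 were found by the mean absolute difference of centred log2(CPM + 1) values. The nearest 5 outside the list were Sfrp2 (0.0428), Pmepa1 (0.0429), Scx (0.0442), Ip6k3 (0.0480) and Gp1bb (0.0554). Sfrp2, a secreted Wnt modulator of fibroblasts, was at 34.6 and 39.0 CPM in vehicle and 29.2, 43.2 and 56.4 CPM in JIB-04. Pmepa1, a gene induced by TGF-beta, was at 86.1 and 101 CPM in vehicle and 70.1, 110 and 130 CPM in JIB-04. Scx, a transcription factor of tendon and fibroblasts, was at 16.04 and 16.8 against 13.6, 20.8 and 22.8 CPM. Of the 10 genes themselves Klf4 lay nearest to the profile (0.0665) and Jun farthest (0.262).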

How the data were processed

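Per the labels' protocols, RNA was extracted with Trizol and made into stranded mRNA libraries. The submitters' processing notes list build mm10, edgeR, Subread, featureCounts, Picard 1.127, TopHat2 2.0.12 and FastQC 0.11.2, with no role or order. The deposited signal values carry the header CPM, but columns summed to 954981 to 1046902, so the authors' values are not counts divided by the library total alone. Every value was a whole multiple of 1 read (100% within 0.01 of a whole number), and reads were recovered. One row without a name or value was left out.

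Genes passing edgeR's filterByExpr (14414) were fitted with limma (3.58.1, R 4.3.3), with a mean-variance trend on log2(CPM + 1), vehicle against JIB-04, with Benjamini-Hochberg adjustment over all of them. Alternatives were edgeR (4.0.16), DESeq2 (1.42.0) and limma-voom on recovered reads, pseudocounts of 0.1 and 5, other filters, rescaling, a replicate block and each library left out. Scripts were tested on simulated data. The intervals are limma's, from the spread between libraries, with each gene's variance drawn toward that of genes at a like level. For genes of unusually wide spread, such as Egr1 and Fos, this makes intervals and p-values smaller than their own libraries alone would give. The level of 3 reads and the counting SD cover counting error only, as reads carry no molecular identifiers.

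The 10 genes, 5 further lists and 11 marker lists were chosen with earlier results of these data known, so lists carry counts and medians and no test. All 10 genes are named, with up to 4 genes of smallest p from each further list and the 5 of nearest pattern (mean of 1 CPM or more, symbol not a placeholder). Srf and Rps6ka5 were named besides, after their values were seen. Values of 2 genes of the further lists are not reported here. A planned comparison of proteins was not made.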

Additional observations from a re-analysis of the deposited data

How the results depend on the processing

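None of the 10 genes passed the threshold in either direction under any of 14 alternatives, and the lowest adjusted p of any was 0.0615 (limma, Junb without JIB-04 replicate 1). Over all genes DESeq2 called 68 higher and 16 lower where limma called 0, and limma without 1 library called 0 to 27 higher and 0 to 2 lower, the highest without JIB-04 replicate 1; the cause was not tested. Leaving out a vehicle library leaves 1, which is then assumed to vary like the JIB-04 libraries. With 1 library left out, for order and spread a choice made after seeing the data, 0 to 7 of the 10 genes lay above vehicle in every JIB-04 library (15.7% to 23.3% of all tested genes) and 0 to 1 below (17.2% to 28.9%), with fewer libraries to separate, and the median residual SD ran from 0.25 to 0.43. The median log2 fold change of the 10 ran from 0.02 to 0.35 with 1 library left out and from 0.09 to 0.21 over tools, pseudocounts, filters and scaling.

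Of 139 single-gene values, 16 changed sign. Atf3 (-0.03) was at 0.046 with edgeR, 0.043 with DESeq2 and 0.019 after rescaling, and ran from -0.33 to 0.23 with 1 library left out. Ier3 ran from -0.10 to 0.22, Nr4a1 from -0.20 to 0.43 and Klf4 from -0.066 to 0.26. With the replicate number as a block, Ier3 was at -0.10, Nr4a1 at -0.016 and Klf4 at -0.066, the median of the 10 at 0.02, and 0 genes passed. With the block 5 of 10 values were positive. The labels do not say that the numbers pair animals. Deviations of same-numbered libraries correlated at -0.13 and -0.14 across genes, values that depend on each other because 2 vehicle libraries mirror each other about their mean, so whether the numbers pair the libraries was not settled. JIB-04 replicate 3 has no partner and adds nothing to the block's value. With a mean of at least 1 CPM, Fosb could not be fitted. Depth limits Fosb most, with 11 to 33 reads.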
